A study of Mus musculus with 28 samples.

Results

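First molars form on both sides of the mouse jaw, and the question addressed here was whether the left tooth germ and the right tooth germ carried the same RNA. All first molars whose column in the table of read counts was labelled M1L (left) or M1R (right) were taken, which gave 21 of the 28 libraries of the series, each made from a single tooth. They came from wild type C57BL/6JOlaHsd embryos, with no transgene, deletion or treatment in any group, and 18 embryos were sampled. At E13 (labelled E13.5, bud stage) there were 4 left and 3 right teeth, at E14 (labelled E14.5, cap stage) 2 left and 5 right teeth, and at E16 (labelled E16.5, bell stage) 4 left and 3 right teeth. At 1 embryo of E14 (embryo 6) and 2 embryos of E16 (embryos 6 and 8) both teeth were sequenced, and every other tooth was the only one from its embryo. A separate set of E15 first molars, 3 left and 3 right in a table made with another program, is described at the end. Each tooth was dissected whole, so that a level is an average over its cells, and fewer cells of a type and less RNA per cell cannot be told apart.

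The left and right sides of a vertebrate body are first told apart at the node, where moving cilia drive a flow that is sensed by further cilia carrying the Pkd2 channel. Dand5, an antagonist of the secreted signal Nodal, is lost on the left, Nodal then spreads through the left lateral plate with its own targets and antagonists Lefty1 and Lefty2, and midline genes such as Shh keep the signal on its side.

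Library depth was similar on both sides. Total counts per library were 19187478 to 23827447 (left) and 22157810 to 24109057 (right) at E13, 24478310 and 25711785 (left) and 23210069 to 25256090 (right) at E14, and 17814073 to 25827051 (left) and 22195223 to 27115729 (right) at E16. The 10 markers of the dental epithelium had a mean over the libraries of 61.6 to 532 CPM, which are counts scaled to the size of the library with TMM factors, with 0.969 CPM as the lowest value of any marker in any library. For the 10 markers of the dental mesenchyme these means were 94.4 to 533 CPM and the lowest value 26.02 CPM, so that every marker was counted in every library. Transcripts of the Y chromosome were present in 10 libraries (5 left, 5 right) and near absent in 11 (5 left, 6 right), and the teeth of each embryo sampled on both sides matched each other in this. The E16 left tooth of embryo 3 stood apart from the other libraries, with the smallest total (17814073), a TMM factor of 1.21, a summed level of the dental mesenchyme markers of 1095 CPM, the lowest of all libraries, and an SD of its log2 ratio to the other E16 teeth of 0.722 to 0.837, against 0.230 to 0.464 for the other 57 pairs of teeth of one stage. The E16 right tooth of embryo 7 had a TMM factor of 0.850 and 15.3% of its counts in rRNA-like genes. The PC test is given without the first of these teeth and the haemoglobin genes without the second, both chosen after the data were seen. The labels do not say that the teeth of a group came from separate litters, so p-values measure only the spread between these teeth.

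No gene passed the test between left and right teeth when all stages were fitted together. Of 21460 genes tested with stage as a factor, 0 (0%) passed an adjusted p of 0.05 (edgeR quasi-likelihood test with Benjamini-Hochberg adjustment), and the lowest adjusted p was 1.00. At an unadjusted p below 0.05 there were 372 genes (1.73%), and the DESeq2 test called 0 genes with 460 at an unadjusted p below 0.05. The call of 0 held when each of the 21 teeth was left out in turn and under all 11 other settings tried. The embryo as a block was among these, but side then rests only on the 3 embryos with both teeth.

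The genes known for setting left and right were looked at first. The 76 genes listed fall into the Nodal signal and its partners (18), factors of the lateral plate and of the organs it forms, with their targets (14), midline and BMP genes (16) and genes of the cilia at the node (28). After the filter on low counts 61 were tested, 11, 10, 15 and 25 of the 4 groups, and 0 passed the adjusted threshold, beside 0% of all genes. At an unadjusted p below 0.05 there were 0 of 61, beside 1.73% of all genes. Their log2 fold changes (left over right, positive when left is higher) ran from -0.44 to 1.22 with a median of -0.01. The median size of the difference without its sign was 0.068, and over all tested genes it was 0.0774. The lowest unadjusted p was that of Ihh, a hedgehog signal of cartilage and gut named after its values were seen, at 0.0655.

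**Figure D1:**
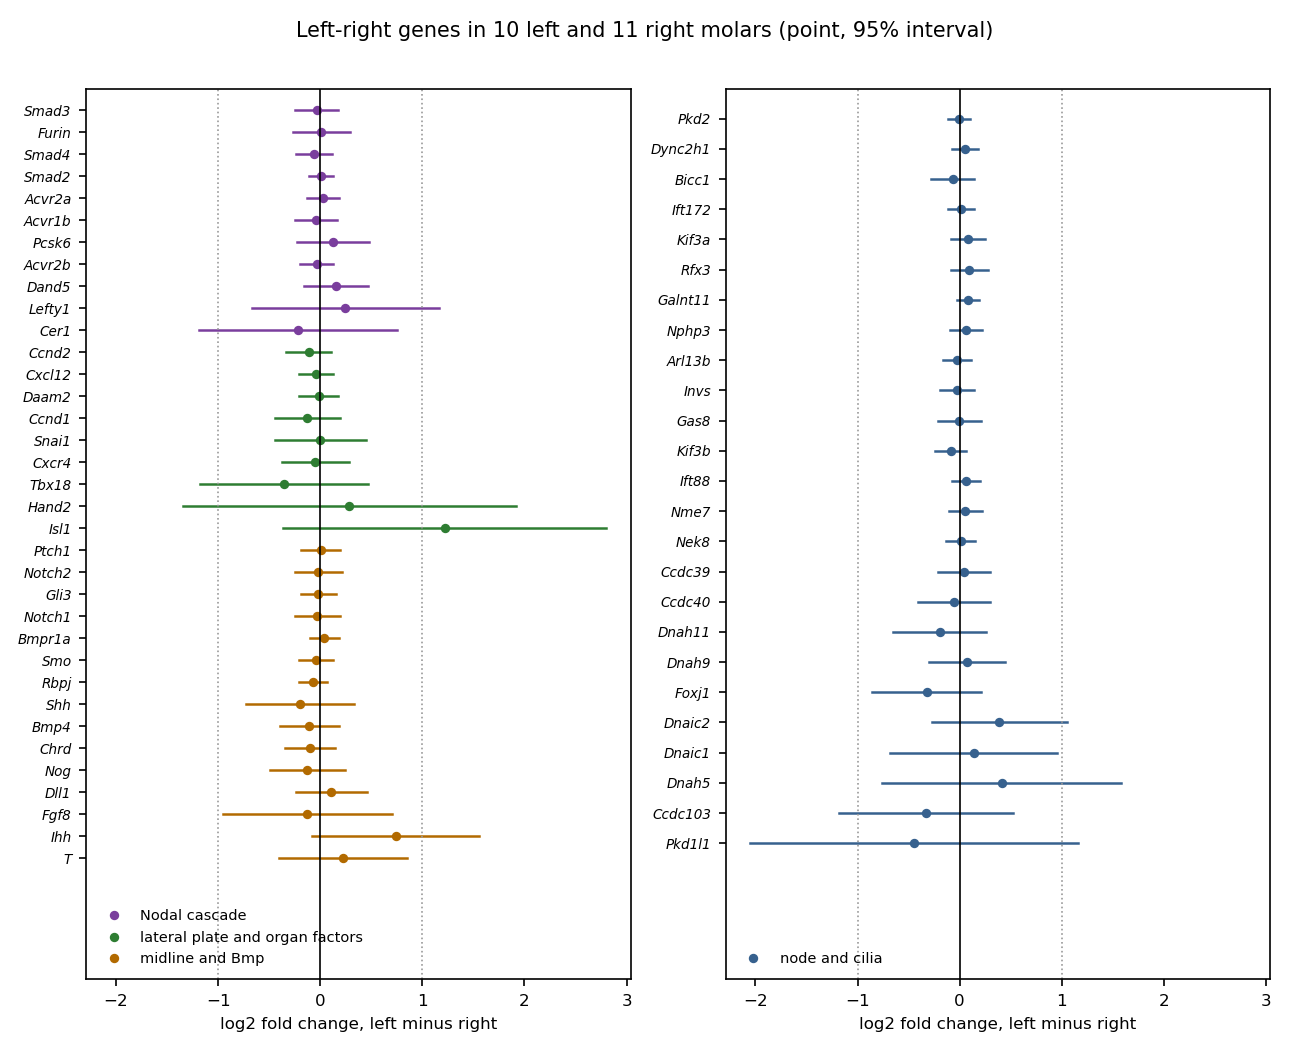
Left minus right log2 fold change (x axis) of 60 of the 61 tested left-right genes with stage as a factor, as points with 95% intervals, coloured by group, with dotted lines at 2-fold. The intervals of all 60 genes drawn cross 0 and 50 of them lie within 2-fold in either direction.

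Nodal and the genes closest to it were near the limit of detection on both sides, so that the upstream signal could hardly be compared. Nodal itself had 4 counts summed over the 10 left teeth and 9 over the 11 right teeth, with 14 libraries at 0. Lefty2, the Nodal antagonist of the left lateral plate, had 17 and 16 counts. Of the Nodal co-receptors, Cfc1 had 1 and 6 counts and Tdgf1 had 10 and 4, while Foxh1, the factor through which Nodal acts, had 7 and 16. Gdf3 had 2 and 10. Gdf1 was at 0 on both sides, but it lies over Cers1 and Upf1 in the annotation, and counting can leave out reads shared by overlapping genes, so its 0 is not informative. The heart factors Nkx2-5 (7 and 0), Gata4 (3 and 0), Tbx5 (2 and 17) and Hand1 (0 and 0), and Noto (0 and 0), Mmp21 (4 and 4) and Dnaaf1 (41 and 55) were left out by the filter on low counts. A side difference in the 15 listed genes left out was not detectable at this depth.

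Among the tested genes of the cascade, Dand5, the Nodal antagonist that is asymmetric at the node, had 39 to 99 counts per tooth. Its log2 fold change was 0.15 ± 0.15 (SE) and a difference of 1.36-fold would have been seen with 80% power at an unadjusted p of 0.05. Lefty1, which acts at the midline, had only 1 to 37 counts per tooth. Its log2 fold change was 0.24 ± 0.44, with an interval from 0.628-fold to 2.23-fold. Without the E14 left tooth of embryo 6, which had the 37 counts, the value for Lefty1 was -0.24, so its direction rested on 1 tooth. Shh, the epithelial signal of the tooth and a midline gene of the embryo, gave -0.20 ± 0.26. In E13 left teeth Shh ranged from 0.969 to 8.92 CPM and in E13 right teeth from 3.88 to 5.22 CPM, which overlapped. Tbx18, a mesenchymal T-box factor, gave -0.36 ± 0.40, and Isl1, a factor of the distal jaw epithelium, gave 1.22 ± 0.77 with an interval from 0.778-fold to 6.96-fold. The value of Isl1 came with 2.30 CPM in the E13 left tooth of embryo 7, while the other E13 left teeth had 0.241 to 0.581 CPM.

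Some receptors, transducers and cilia genes of the list were measured closely and others were not. Those given here were chosen for their roles after their values were seen. The activin receptor Acvr2b, through which Nodal signals, gave -0.03 ± 0.08 (SE, log2 scale), with an interval from 0.873-fold to 1.09-fold, and Smad2, which carries the signal to the nucleus, gave 0.01 ± 0.06. Pkd2, the channel that senses flow at the node, gave -0.01 ± 0.05, with an interval from 0.925-fold to 1.07-fold. Pkd2 CPM at E13 were 174.9 to 177.9 in the left teeth and 152.0 to 172.3 in the right teeth. These did not overlap, and the share of all genes without overlap at E13 was not computed. The Pkd2 levels overlapped at E14 (134.2 and 151.1 against 145.3 to 159.3) and at E16 (135.6 to 147.1 against 139.5 to 154.5). Foxj1, the master factor of motile cilia, gave -0.32 ± 0.26, and Dnah11, a dynein of the node cilia, gave -0.19 ± 0.22. Within the 3 embryos with both teeth the log2 ratio of Dand5 was 0.07, 0.11 and 0.03, that of Shh -0.12, -0.10 and -0.24, and that of Lefty1 1.26, -0.10 and 0.60. Dand5 and Shh kept 1 sign in the 3 embryos and Lefty1 did not. Of all genes with a mean of at least 100 counts, a level Dand5 did not reach, 18.6% kept 1 sign. The shared sign is therefore not read as a side difference.

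How large a difference could have been seen depended on the level of the gene. Over all 21460 genes the median 95% interval reached 0.29 on the log2 scale to each side, and for 79.1% of genes the whole interval lay within 2-fold. With 80% power, the median gene would have been seen at a 1.33-fold difference at an unadjusted p of 0.05 and at 1.97-fold at the threshold that 1 changed gene alone among all genes needs. Genes below 1 CPM needed 2.77-fold and 11.7-fold, and only 20.7% of their intervals lay within 2-fold. Genes of 1 to 10 CPM needed 1.46-fold and 2.48-fold, those of 10 to 100 CPM 1.21-fold and 1.57-fold, and those above 100 CPM 1.18-fold and 1.48-fold. For the left-right genes, 51 of 61 intervals lay within 2-fold and 45 within 1.5-fold. The other 10 were Ccdc103, Cer1, Dnah5, Dnaic2, Hand2, Ihh, Isl1, Lefty1, Pkd1l1 and Tbx18, whose intervals reached past 2-fold. A single stage saw less: the median gene needed 1.59-fold and 3.15-fold at E13, 1.66-fold and 3.48-fold at E14 with only 2 left teeth, and 1.59-fold and 3.12-fold at E16.

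**Figure D2:**
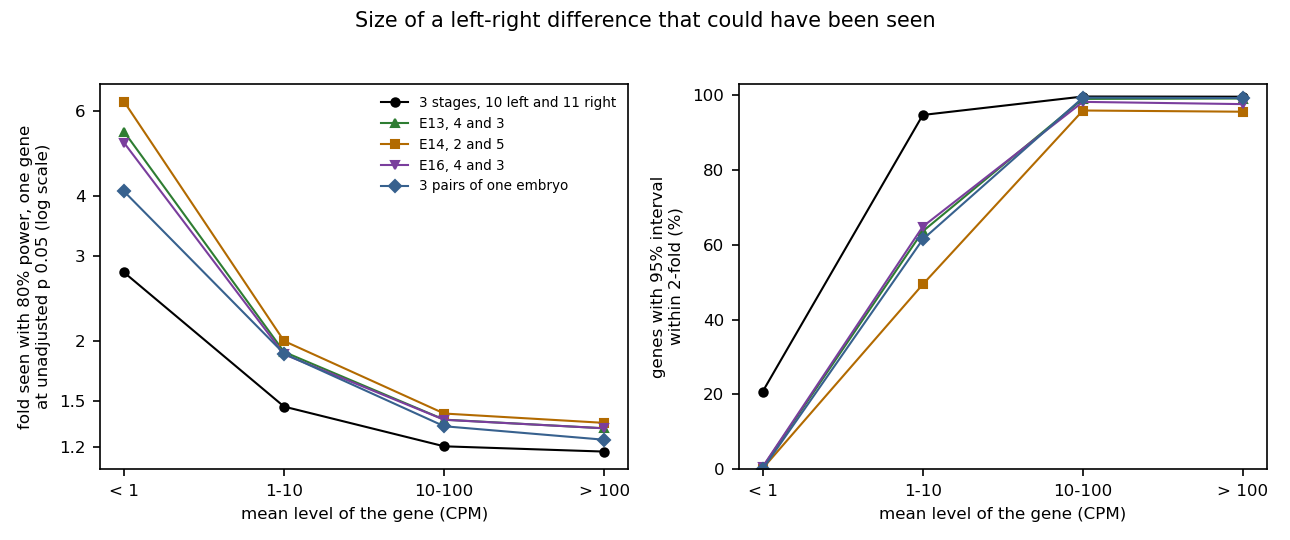
Left panel, the left to right difference in fold seen with 80% power at an unadjusted p of 0.05 (y axis, log scale), and right panel, the percentage of genes whose 95% interval lies within 2-fold, both as medians or shares over genes by mean level in CPM (x axis), for the 3 stages together, each stage and the 3 pairs of one embryo. The detectable difference with all stages together falls from 2.77-fold below 1 CPM to 1.18-fold above 100 CPM.

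Genes of tooth development were looked at in the same way. The 55 signals and transcription factors listed for the tooth were all tested, 0 had an unadjusted p below 0.05 (beside 1.73% of all genes), their median log2 fold change was -0.03, and 51 of 55 intervals lay within 2-fold. Bmp4, a signal that passes between epithelium and mesenchyme, gave -0.11 ± 0.14 (SE). Msx1, its mesenchymal target, gave -0.04 ± 0.13, and Barx1, the molar-field homeobox factor, gave -0.05 ± 0.14. Pax9, a mesenchymal factor without which teeth arrest, gave -0.02 ± 0.08, the interval running from 0.873-fold to 1.11-fold. Fgf4, the signal of the enamel knot, gave -0.14 ± 0.34, and without the E13 left tooth of embryo X, whose 1.95 CPM stood above the 0.0482 to 0.246 of the other E13 left teeth, it gave -0.50.

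Among the genes with the lowest unadjusted p over all stages, 0 passed the adjustment (adjusted p = 1.00 for each, edgeR). On the left these were Lurap1l (0.37 ± 0.09 on the log2 scale), Fos (1.41 ± 0.45), and the predicted genes Gm16045 (1.13), Gm25313 (1.04) and Gm37959 (1.61). On the right they were Tbx4, a T-box factor best known from the hindlimb and the lung (-0.997 ± 0.255), Tgfa, an EGF receptor ligand (-0.49 ± 0.15), Enox2 (-0.37 ± 0.12), Gm22061 (-1.31) and H2-M2. These genes were picked for a low p, so a lack of overlap between their sides adds no support. Lurap1l CPM were 8.44 to 9.72 in the left and 6.69 to 7.05 in the right teeth at E13, with no overlap. The share of all genes without overlap at E13 was not computed. Lurap1l CPM were 15.4 and 15.5 against 9.20 to 11.6 at E14, with left above right as in 8.81% of all genes. At E16 they were 17.6 to 25.3 against 17.0 to 23.6, where the sides overlapped. Tbx4 CPM were 0.279 to 0.654 in the E16 left teeth and 0.742 to 1.44 in the E16 right teeth. All right teeth were thus above all left teeth, as in 1.51% of all genes. At the earlier stages the sides overlapped for Tbx4. H2-M2, a class I molecule of the major histocompatibility complex, was at 0 in both E14 left teeth and in 2 of 5 right teeth of that stage, so that no fold is given. The pooled value of Fos came with the E14 teeth described next: with E13 and E16 alone it was 0.54, and the pooled value of Lurap1l was then 0.25.

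At E14, 1 of 21460 genes (0.00466%) was called, and 1683 (7.84%) had an unadjusted p below 0.05, of which 791 (3.69%) were higher on the left. The called gene was Egr1, a zinc finger factor that cells induce within minutes of a stimulus. Egr1 (ENSMUSG00000038418) had 396 CPM in the left tooth of embryo 6 and 497 CPM in that of embryo 8. The right teeth of embryos 1, 2, 3, 5 and 6 had 41.7, 42.8, 65.3, 94.3 and 148 CPM. Both left teeth were above all right teeth, as in 8.81% of all genes. The right tooth of embryo 6, from the same embryo as a left tooth, was the highest of its side. The means were 446 ± 71.1 (SD, n = 2) and 78.4 ± 44.3 (n = 5), and the log2 fold change was 2.51 ± 0.41 (SE; edgeR adjusted p = 0.0373). At E13 the means were 9.66 ± 3.996 (left) and 8.73 ± 2.66 (right) and at E16 42.0 ± 17.9 and 44.0 ± 7.90, without a call. The test that the side difference of Egr1 changed between stages gave an adjusted p of 0.887, but with all genes of any count tested it gave 0.0015, a call. The call was lost without any 1 of 10 libraries. The adjusted p rose to 0.404 without the E14 left tooth of embryo 8, to 0.207, 0.133 and 0.102 without the E14 right teeth of embryos 3, 2 and 5, to 0.0670 and 0.0583 without the E13 right teeth of embryos 1 and 9, to 0.0566 without the E16 left tooth of embryo 5, and to 0.0587, 0.0638 and 0.0672 without the E16 right teeth of embryos 6, 7 and 8. The log2 fold change was 2.34 to 2.87 throughout.

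Egr1 is one of the immediate early genes, those that cells switch on without new protein synthesis. Of the 12 in the list, 9 had an unadjusted p below 0.05 at E14 with the left teeth higher, beside 3.69% of all genes, and 10 of 12 had both left teeth above all 5 right teeth, beside 8.81% of all genes. The list was drawn up with earlier results of these data known. Those with an unadjusted p below 0.05 were Egr1, the AP-1 subunits Fos (2.90 on the log2 scale), Fosb (3.31), Jun (1.18) and Junb (1.54), the stress factor Atf3 (2.18), the orphan receptor Nr4a1 (1.57), the phosphatase Dusp1 (1.33) and Ier2 (0.63), and of these Egr1 alone passed the adjustment in the fit described. Other settings called more of the list at E14, with genes outside the list called too. With all genes of any count 19 were called, 8 of them listed (Egr1, Nr4a1, Fos, Atf3, Jun, Junb, Dusp1 and Fosb). DESeq2 called 24, of which 5 were listed (Egr1, Nr4a1, Atf3, Junb and Jun). Without the E16 left tooth of embryo 3, 13 were called, 5 of them listed. Without the E14 right tooth of embryo 6, 8 were called, 5 of them listed. E14 alone called 17, of which 4 were listed (Jun, Egr1, Junb and Nr4a1), and histone genes such as Hist1h4c were among the rest. Egr2 (-0.25), Egr3 (-0.38) and Ier3 (0.40) were above an unadjusted p of 0.05. Nr4a1 had an adjusted p of 0.0541, and so had Zfp36, which encodes an RNA-binding protein, and Ccn1, a matrix protein, both chosen after their values were seen.

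Fos showed the pattern across single teeth. Its CPM at E14 were 83.8 and 191 in the left teeth of embryos 6 and 8, 3.66, 4.02 and 4.75 in the right teeth of embryos 1, 2 and 3, and 36.4 and 43.2 in those of embryos 5 and 6. Fosb had 140.5 and 395 CPM in the left teeth and 1.23, 0.763, 1.33, 59.3 and 72.1 in the right teeth in the same order. The right teeth of embryos 5 and 6 therefore stood between the left teeth and the other right teeth. Summed over the 12 genes the level was 1164 and 1640 CPM in the left teeth and 382 to 689 CPM in the right teeth at E14, 117 to 135 against 113 to 123 CPM at E13, and 154 to 335 against 231 to 263 CPM at E16. The sums of the sides did not overlap at E14 and overlapped at E13 and E16. Over all stages 7 of 12 genes had an unadjusted p below 0.05 with left higher, beside 1.14% of all genes, and 3 of 12 without the E14 left tooth of embryo 8. With E13 and E16 alone it was 1 of 12, beside 0.908% of all genes.

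**Figure D3:**
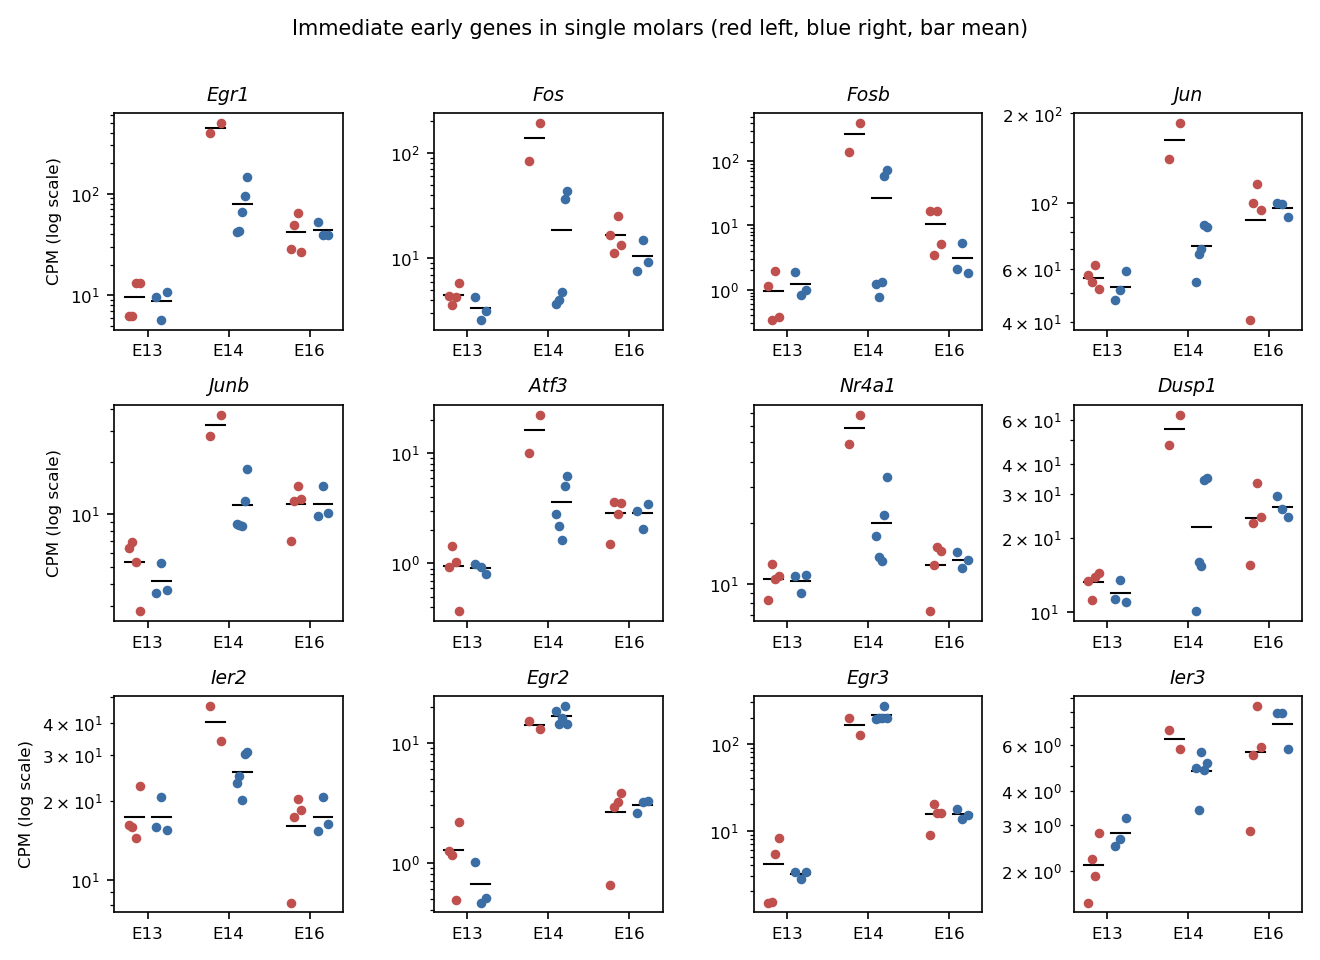
CPM (y axis, log scale) of the 12 listed immediate early genes by stage (x axis), 1 point per tooth, left teeth red and right teeth blue, with a bar at the mean of each group. At E14 the 2 left teeth lie above the 5 right teeth for 10 of the 12 genes, among them Egr1 (396 and 497 against 41.7 to 148) and Fos (83.8 and 191 against 3.66 to 43.2).

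Measures of the libraries were also compared between the sides at E14, and both of those given here overlapped. The share of counts in rRNA-like genes was 3.95% and 4.93% in the left teeth and 4.18% to 10.2% in the right teeth, and the share of mitochondrial transcripts was 3.48% and 2.66% against 1.53% to 2.87%. Their part in the result was not tested. In the right teeth of embryos 1, 2, 3, 5 and 6 the rRNA-like share was 10.2%, 9.84%, 4.18%, 9.56% and 6.70%. The mitochondrial share was 1.67%, 1.55%, 2.87%, 1.53% and 1.93% in the same order. The Egr1 levels of these teeth are given above in that order. The bone markers had differences of both signs. Summed over the list of 10 they were at 3460 and 5407 CPM in the E14 left teeth and 3397 to 5102 CPM in the right teeth, which overlapped. At E14, 3 of 10 had an unadjusted p below 0.05 with left higher, beside 3.69% of all genes, and 2 of 10 had both left teeth above all right teeth, beside 8.81%. Their log2 fold changes ran from -1.70 to 2.77 with a median of 0.55. The lowest was that of Bglap, named after its values were seen, at 4 and 5 counts in the left and 3 to 31 counts in the right teeth. The highest was that of Ibsp, a bone matrix protein. Ibsp was at 537 CPM in the left tooth of embryo 8, 88.7 in that of embryo 6 and 18.5 to 115 in the right teeth. Other settings called bone genes at E14. With all genes of any count these were Ibsp (2.77, edgeR adjusted p = 1.02e-04) and Ifitm5 (2.16, 5.93e-04). DESeq2 called Ifitm5 (adjusted p = 0.00183), and edgeR without the E14 right tooth of embryo 1 called Ibsp (adjusted p = 0.0313). With E14 fitted alone neither was called. Over all stages 3 of 10 had an unadjusted p below 0.05 with left higher (Ibsp 1.25, Spp1 0.77 and Ifitm5 0.75), beside 1.14% of all genes, and the lowest of the list was -0.54. At E16 the median of the list was -0.19, and all right teeth were above all left teeth in Ibsp, as in 1.51% of all genes. Their part in the difference of the immediate early genes was not tested.

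The start regions of immediate early genes are shown because 9 of the 12 genes had an unadjusted p below 0.05 at E14. Of the 12 genes, 9 were matched in the RefSeq promoter table of GRCm38.p6, which gives 250 bases before to 50 after the start. Egr1, Egr3 and Ier2 had no match. The 9 matched genes thus lack the called gene Egr1 and Ier2, and include Egr2 and Ier3, which were above an unadjusted p of 0.05. The Fos, Nr4a1 and Atf3 stretches are printed with every TGACG, the core of the cAMP response element, or its reverse complement CGTCA in capitals. They lie at chr12:85473640-85473939 (plus strand), chr15:101266596-101266895 (plus strand) and chr1:191183284-191183583 (minus strand).
Fos: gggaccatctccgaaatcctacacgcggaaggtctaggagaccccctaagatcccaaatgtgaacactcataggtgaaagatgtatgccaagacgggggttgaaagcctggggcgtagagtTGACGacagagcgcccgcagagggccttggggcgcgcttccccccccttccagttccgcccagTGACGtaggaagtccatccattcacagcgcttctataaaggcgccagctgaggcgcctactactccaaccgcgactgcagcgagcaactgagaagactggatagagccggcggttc
Nr4a1: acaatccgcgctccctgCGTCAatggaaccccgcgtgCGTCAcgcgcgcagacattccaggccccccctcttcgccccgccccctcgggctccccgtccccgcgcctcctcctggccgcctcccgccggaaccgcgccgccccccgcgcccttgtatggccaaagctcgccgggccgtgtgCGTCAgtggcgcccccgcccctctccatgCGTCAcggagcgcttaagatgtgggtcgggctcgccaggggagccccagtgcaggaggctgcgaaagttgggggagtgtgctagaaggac
Atf3: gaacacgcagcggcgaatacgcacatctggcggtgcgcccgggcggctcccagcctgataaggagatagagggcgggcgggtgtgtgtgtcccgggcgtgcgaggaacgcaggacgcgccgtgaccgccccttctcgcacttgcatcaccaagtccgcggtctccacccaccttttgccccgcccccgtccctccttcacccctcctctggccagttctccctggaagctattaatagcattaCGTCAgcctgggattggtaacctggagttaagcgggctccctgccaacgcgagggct

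TGACG was sought on both strands and was present in 7 of the 9 immediate early promoters, and in 20.8% of all 32851 promoters of that length in the table. It occurred 2 times in the Fos stretch, 4 times in that of Nr4a1 and 1 time in that of Atf3. The CArG box of serum response elements was in 1 of 9 (1.63% of all promoters) and the AP-1 site TGAGTCA in 0 of 9 (5.20% of all). These matches describe letters in the window and nothing about binding in the teeth.

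At E13, 0 of 21460 genes passed the adjusted threshold (edgeR) and 348 had an unadjusted p below 0.05. The lowest unadjusted p were those of Rufy4 (log2 fold change 2.01), S100a7a (3.88) and Phyhip (-1.29). Rufy4 had 0.533 to 1.00 CPM in the left teeth and 0.127 to 0.245 in the right teeth, without overlap, and reached at most 2.35 CPM in any tooth. Phyhip had 0.528 to 0.772 CPM in the left and 1.27 to 1.86 CPM in the right teeth, again without overlap. Both were picked for a low p, and the share of all genes without overlap at E13 was not computed. S100a7a was at 0 in 2 of 3 right teeth and at 0.164 to 0.338 CPM in the left teeth, so its fitted value rests on single counts.

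At E16, 1 of 21460 genes (0.00466%) was called and 591 had an unadjusted p below 0.05. The called gene was Rpl28-ps1 (ENSMUSG00000058603), a processed pseudogene of a ribosomal protein at GRCm38 chromosome 1, 128038569 to 128038982, inside Zranb3. It had 36, 46, 62 and 66 counts in the left teeth and 164, 104 and 217 in the right teeth. These did not overlap, with all right teeth above all left teeth as in 1.51% of all genes. The levels were 2.14 ± 0.495 CPM (SD, n = 4) and 6.48 ± 1.25 CPM (n = 3), and the log2 fold change was -1.60 ± 0.25 (SE; edgeR adjusted p = 0.0329). Reads of a pseudogene can also match other copies, so its count is uncertain. The call was lost with E16 fitted alone (adjusted p = 1.00) and with the embryo as a block in the 7 E16 teeth (-1.43, adjusted p = 0.185). In that blocked fit another ribosomal pseudogene, Rpl38-ps2, was called instead (-2.13, adjusted p = 0.0012), named after its values were seen. The call of Rpl28-ps1 was also lost without any of 13 single libraries, with adjusted p of 0.0505 to 0.290: the E13 left tooth of embryo 7, the E13 right teeth of embryos 1, 5 and 9, the E14 right teeth of embryos 2, 3 and 5, the E16 left teeth of embryos 3, 5 and 6, and the E16 right teeth of embryos 6, 7 and 8. At E14 Rpl28-ps1 was higher on the left (0.71), and over stages the test that its side difference changed gave an adjusted p of 0.168, the lowest of all genes, none of which (0%) passed.

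Left-right genes by stage gave no call either. At an unadjusted p below 0.05 E13 had 0 of 61 (1.62% of all genes), E14 had 1 (7.84% of all genes) and E16 had 2 (2.75% of all genes). At E14 it was Ihh (1.47 on the log2 scale, adjusted p = 0.604), with 0.738 and 3.31 CPM in the left and 0.429 to 1.01 CPM in the right teeth, which overlapped. At E16 they were Fgf8, an oral epithelium signal which was at 0 in all 3 right teeth and at 0 to 0.233 CPM in the left teeth, and Hand2, a jaw factor seen chiefly in the right tooth of embryo 6 at 0.958 CPM. Ihh, Fgf8 and Hand2 were chosen for mention after their values were seen.

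Markers of tissue that is not tooth were high in single teeth. Myh3, an embryonic muscle myosin, had 139.6 CPM in the E13 left tooth of embryo 7 and 0.528 to 12.3 CPM in the other E13 teeth, and 30.8 CPM in the E16 right tooth of embryo 6. Its pooled log2 fold change was 0.36, and it was -1.02 without the E13 left tooth of embryo 7 and 1.70 without the E16 right tooth of embryo 6, so that its direction was set by 1 tooth. The muscle list had a median of 1.24 at E13 and -0.53 at E16. Of 9 tested red blood cell genes, 3 (Hbb-bs, Hba-a1 and Hba-a2) had an unadjusted p below 0.05 at E16 with right higher, beside 1.13% of all genes. The right tooth of embryo 7 had 46.9 CPM of Hbb-bs against 1.88 to 5.89 CPM in the other E16 teeth. Without that tooth 0 of 9 had an unadjusted p below 0.05, and the log2 fold change of Hbb-bs was -1.02 in place of -2.86.

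In the 3 embryos whose left and right teeth were both sequenced, side can be compared with the embryo held fixed. Fitted with the embryo as a block, 0 of 18743 genes (0%) passed the adjusted threshold and 287 (1.53%) had an unadjusted p below 0.05, on 2 residual degrees of freedom. The median gene would have been seen at a 1.44-fold difference at the unadjusted threshold and at 4.47-fold at the threshold for 1 gene alone, so the pairs see less than the 21 teeth. The lowest unadjusted p was that of Ly6d, followed by Fos and Fosb. The log2 ratio of left to right of Fos was 0.95, 1.71 and 0.54 in E14 embryo 6, E16 embryo 6 and E16 embryo 8, with 1.06 ± 0.21 (SE) from the fit (adjusted p = 1.00, edgeR). That of Fosb was 0.96, 2.95 and 1.47, with a fitted value of 1.71 ± 0.33 (adjusted p = 1.00). Both were higher on the left in 3 of 3 embryos, although Egr1 was not: its ratios were 1.42, 0.27 and -0.57. With other settings the calls of Fos and Fosb changed: the DESeq2 test called Fos (adjusted p = 0.0132), testing all genes with any count called Fosb (0.00936) and Fos (0.0497), and without E16 embryo 8 the genes Fos, Fosb and Rny1 were called. Without E14 embryo 6 the pseudogene Rpl38-ps2 was called (-2.14, adjusted p = 0.0038). Of the 12 immediate early genes 5 had an unadjusted p below 0.05 with left higher, beside 0.864% of all genes. The teeth of these pairs, with both E14 teeth of embryo 6, are among the 21 teeth. The count is therefore no separate support for the difference at E14.

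Ly6d, a surface protein of squamous epithelium, was lower on the left in 3 of 3 embryos, with ratios of -0.40, -0.61 and -0.82. Among 13056 genes with a mean of at least 100 counts, 1255 were higher on the left in all 3 embryos. A further 1175 were higher on the right, which is 18.6% of the genes together. Signs also agree by chance in such a count, so it is not read as a side difference. Across these genes the Pearson correlation of the log2 ratios was -0.104 between E14 embryo 6 and E16 embryo 6. It was -0.498 between E14 embryo 6 and E16 embryo 8, and 0.229 between the E16 embryos. Only 1 gene, Fosb, was at least 1.5-fold higher on the left in all 3 embryos, none was at least 1.5-fold higher on the right, and 0 reached 2-fold in all 3. By the smallest ratio over the 3 embryos the leading left genes besides Fosb and Fos were Chst8 (0.85, 1.04 and 0.56), Cthrc1, a secreted matrix protein (0.67, 0.69 and 0.51), and Lrfn5 (0.49, 1.72 and 0.69). On the right they were Tgfa (-1.23, -0.55 and -0.48), Dgkb, a lipid kinase (-0.48, -0.81 and -0.95), Gm20045 (-0.52, -0.65 and -0.60), Gm36962 and Zfp473. Single embryos had more: 153 of the 13056 genes differed by at least 2-fold in E14 embryo 6 (106 higher on the left), 68 in E16 embryo 6 (53 left) and 145 in E16 embryo 8 (21 left). The left-right gene with an unadjusted p below 0.05 was Ccdc39, a cilia gene, at -0.50 (adjusted p = 1.00), which was named after its value was seen.

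**Figure D4:**
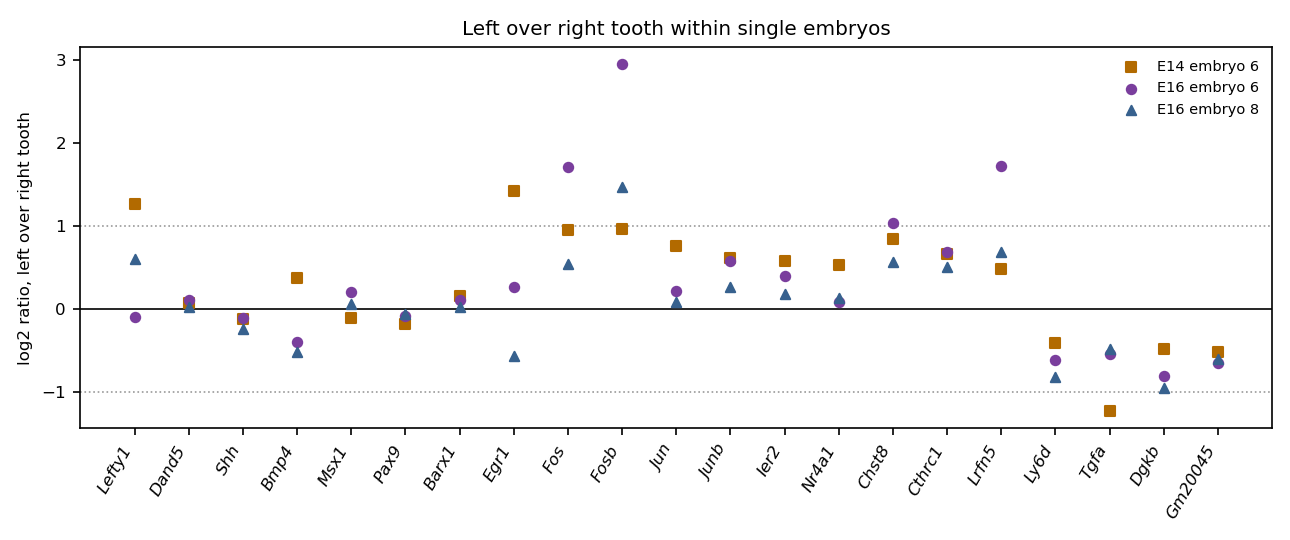
Log2 ratio of left to right tooth (y axis) of left-right, tooth, immediate early and leading pair genes (x axis), with 1 symbol for each of the 3 embryos and dotted lines at 2-fold. Fos lies at 0.95, 1.71 and 0.54 and Ly6d at -0.40, -0.61 and -0.82.

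Whole profiles were compared tooth by tooth. The SD of the log2 ratio over genes between 2 teeth had a median of 0.327 for teeth of the same side and 0.307 for opposite sides of different embryos at E13, 0.339 and 0.365 at E14, and 0.402 and 0.360 at E16 (0.331 and 0.328 without the E16 left tooth of embryo 3). The left and right teeth of 1 embryo had an SD of 0.313 at E14, which was rank 4 of 21 pairs from the most alike, and 0.253 (rank 2 of 21) and 0.330 (rank 9 of 21) at E16. Side took up a mean of 4.06% of the variance within stages over genes, while 1 of 18 degrees of freedom is 5.56%. After removal of stage means, the first 3 principal components carried 13.03%, 11.2% and 9.02% of the variance. No component passed the test of a side difference (exact permutation within stages, two-sided, 25725 arrangements, p = 0.972, 0.768 and 0.216, lowest adjusted p over the 3 components 0.648). Without the E16 left tooth of embryo 3 the lowest adjusted p was 0.626 (exact permutation, 14700 arrangements).

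**Figure D5:**
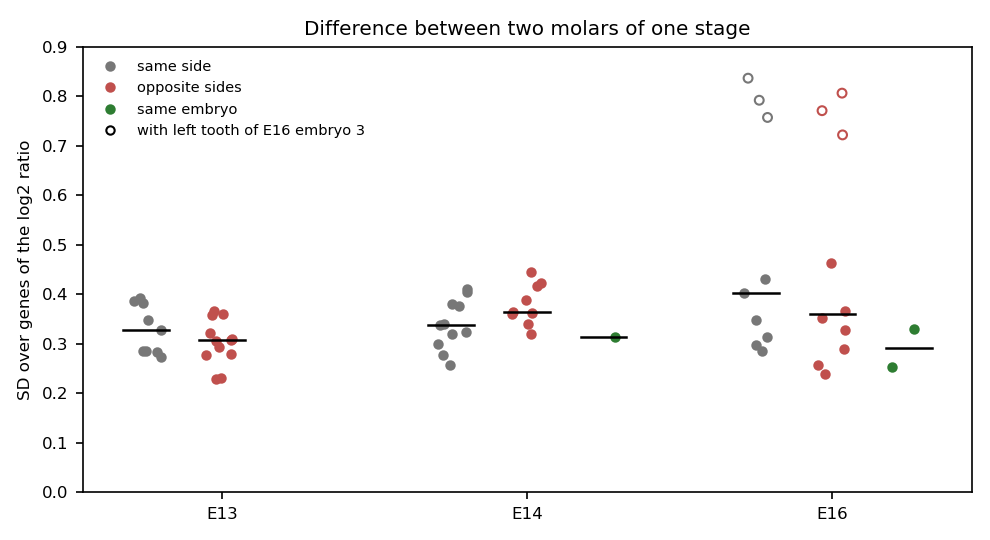
SD over genes of the log2 ratio between 2 teeth of 1 stage (y axis) by stage (x axis), 1 point per pair of teeth, for the same side, opposite sides and the same embryo, with a bar at the median and open points for pairs with the E16 left tooth of embryo 3. The same-embryo pairs lie at 0.313 (E14), 0.253 and 0.330 (E16), within the range of the other pairs, and the open points lie at 0.722 to 0.837.

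The E15 teeth were quantified with salmon. The paper states storage in RNAlater for its RNAseq teeth, whose mouse stages were E13, E14 and E16. It does not describe mouse E15 teeth. The E15 right tooth of embryo 5 had no counts there and was not used. The 3 left and 3 right teeth were fitted together with the E13 and E16 libraries quantified with salmon. Between sides 0 of 13691 genes (0%) passed the adjusted threshold (edgeR on estimated counts rounded to whole numbers, lowest adjusted p = 0.441). With the E15 teeth fitted alone it was also 0 (edgeR, lowest adjusted p = 0.958). Without the E15 left tooth of embryo 3, 52 genes were called, 49 of them higher on the right. Fos was 7.58, 7.63 and 5.34 CPM in the left teeth and 33.5, 8.35 and 3.25 CPM in the right teeth, the highest being a right tooth. Egr1 was 66.7, 152.5 and 61.6 CPM (left) and 56.1, 71.2 and 60.6 CPM (right), overlapping. Of the 11 immediate early genes tested there, 0 had an unadjusted p below 0.05 with left higher, beside 2.55% of all genes, and 1, Fosb, had one with right higher, beside 4.16%.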

How the data were processed

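Single wild type first molars were sequenced (RNAseq). The authors trimmed the reads, aligned them with STAR to GRCm38 with Ensembl release 90 and deposited raw counts per gene from HTSeq, whose strand setting is not given in the sources used here. For E15 the authors deposited expected counts from salmon (0.99.0 in the submitters' processing notes), which were rounded to whole numbers. The 21 libraries held 17814073 to 27115729 counts over 52636 genes, and this depth limits the low genes. Genes were filtered with filterByExpr (21460 tested), scaled with TMM and tested with the edgeR (4.0.16) quasi-likelihood test in R 4.3.3, left minus right with stage as a factor, per stage in a model of 6 group means, and for the 3 embryos with embryo as a block, with Benjamini-Hochberg adjustment over all genes. Intervals use the standard error on the quasi-likelihood scale (biological variation 22.5%). The difference seen with 80% power was computed from each gene's standard error, without resampling. DESeq2 1.42.0 and limma 3.58.1 were alternatives. Principal components were tested by exact permutation within stages. The model was tested on simulated data. Teeth were grouped by label, and a tooth whose embryo is marked X was used as E13 left. The pairing of 3 embryos comes from the embryo numbers in the labels, and their sex-linked transcripts matched.

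No 2 libraries agreed within sampling noise (lowest chi-square per degree of freedom 7.31). Named genes were the listed left-right, tooth and sex-linked genes, called genes, those with the 5 (pooled) or 3 (stage, pairs) lowest p, pair genes with the largest smallest ratio, and the called or most abundant gene of each other-tissue list. Exceptions are stated beside them. The genes, lists and tests were chosen with earlier results of these data known. Gene positions are those of GRCm38, and no strand was assumed for overlapping genes. A few listed genes are not reported here.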

Additional observations from a re-analysis of the deposited data

Results flagged for a closer look

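A tooth was marked where the gap of the highest or lowest tooth of a group of 4 or 5 to its nearest neighbour, as a share of the range of the group, passed Dixon's 95% value. Of 162 groups 22 were marked, where chance alone marks about 1 in 20. Groups of 2 or 3 teeth could not be examined. The share is given for each.

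The E16 left tooth of embryo 3 was lowest in total count (0.832) and in Chst8 (0.964), and highest in TMM factor (0.97) and Gm36962 (0.837). Other E16 left teeth were marked for Tbx4, highest in embryo 5 (0.915), and for Y-linked genes, highest in embryo 6 as the only Y-expressing tooth of that group: Ddx3y (1), Eif2s3y (1), Kdm5d (1) and Uty (0.998).

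Among E13 left teeth embryo 7 was highest in Myh3 (0.988) and Isl1 (0.835) and lowest in S100a7a (0.88). Embryo X was highest in Fgf4 (0.896) and Xist (0.995) and lowest in Kdm5d (0.839). Embryo 3 was highest in Cthrc1 (0.96) and in H2-M2 (1), the latter at 0.0482 CPM with the others at 0.

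Among E14 right teeth embryo 1 was highest in Col1a1 (0.773) and Myh3 (0.729), embryo 3 highest in Bmp4 (0.918), embryo 2 lowest in Enox2 (0.803) and embryo 6 lowest in Hbb-y (0.807). These values are descriptions, and no cause was tested.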

How the results depend on the processing

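No result changed direction past its threshold. The call of 0 genes with all stages together held under the 11 other settings and without each tooth, and at E13 under 5 settings and without each tooth. The replicate block (embryo as a factor, 21 libraries) also gave 0 called genes with 338 at an unadjusted p below 0.05. Side rests there only on the 3 embryos with both teeth, so that fit is no further check on the 21 teeth. In the 7 E16 libraries the block gave 1 called gene, which was Rpl38-ps2 and not Rpl28-ps1. At E14 the count of 1 became 24 with DESeq2 (16 higher on the left), 19 with all genes of any count and 17 with E14 alone. It ran from 0 to 13 without single teeth, with 13 without the E16 left tooth of embryo 3, 9 and 0 without the E14 left teeth of embryos 6 and 8, 8 and 3 without the E14 right teeth of embryos 6 and 1, and 3 without the E16 left tooth of embryo 6. At E16 the count of 1 became 2 with DESeq2, 9 with any count and 0 with E16 alone, and 0 to 1 without single teeth. For the pairs, the count of 0 became 1 with DESeq2 and 2 with any count, and 0 to 3 without 1 embryo (1 without E14 embryo 6, 3 without E16 embryo 8), and with no replicate block it was 0. The test of stage dependence gave 8 genes with the DESeq2 likelihood ratio test and 17 with any count, Egr1 among these, and 0 to 0 without single teeth. At E15 it was 0 to 52. The share of genes with an interval within 2-fold was 79.5% with limma voom and 88.6% with genes kept only at 10 counts in 7 or more teeth, and 72.1% to 79.8% without single teeth. The median half-width was 0.29 and 0.26 under the same settings and 0.24 to 0.34 without single teeth. The PC test and the haemoglobin genes without single teeth, given above, were chosen after the data were seen. The cause of these changes was not tested.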
